A study of Mus musculus with 2 samples.

Results

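The tricarboxylic acid (TCA) cycle and the steps that bring pyruvate into it were examined as a list of 34 named genes, chosen by function: the mitochondrial pyruvate carrier, the pyruvate dehydrogenase complex with its kinases and phosphatases, pyruvate carboxylase, the enzymes of the cycle, and the cytosolic isoforms and glutamate enzymes linked to it. Of these genes, 33 were measured on the arrays, out of 19938 named genes in all, and they were read by 35 of 35557 probe sets. Mpc2 was not analysed here, since no probe set carried its name alone. The tissue was inguinal white adipose tissue, the subcutaneous fat of the groin, of male C57BL/6J littermates. Double-knockout mice (DKO, Ucp1-/-;ApoE-/-) lacked uncoupling protein 1 and apolipoprotein E, and the comparison mice (ApoE-KO, ApoE-/-) lacked apolipoprotein E alone, so the loss of ApoE was common to both groups. All mice were kept at 23 °C and were fed a high-fat diet for 9 weeks from 9 weeks of age. RNA of 3 mice was pooled within each genotype and each pool was read on 1 Affymetrix array, which left 2 arrays and no replicates. No difference below therefore has an error or a test, since the spread between mice was averaged out before measurement, and the small number of arrays limits precision.

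Pyruvate made by glycolysis enters the mitochondrial matrix through a carrier built from MPC1 and MPC2 and is turned into acetyl-CoA by the pyruvate dehydrogenase complex. Kinases (PDK) switch this complex off by phosphorylation and phosphatases (PDP) switch it on. Acetyl-CoA is then oxidised by the cycle, which delivers electrons to the respiratory chain. Brown and beige adipocytes are rich in mitochondria and carry high levels of these enzymes, whereas white adipocytes hold few mitochondria and also use cycle intermediates, citrate above all, to build fat.

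The targeted genes and the tissue were read first. Ucp1, the gene disrupted in DKO alone, had an intensity of 2229.9 in the DKO-labelled array, against 219 in the ApoE-KO-labelled array. This goes against the label unless some of the probes read RNA that the disrupted gene still makes. The sources used here do not give the position of the Ucp1 probes. Apoe, disrupted in both genotypes, had 502 in the DKO-labelled array, against 589 in the ApoE-KO-labelled array. The arrays are therefore named by their labels, and each direction below rests on those labels. The fat cell identity of the tissue was read from 12 markers of mature adipocytes, which had a median difference of 0.06 and of which 0 differed 2-fold. Adipoq, the adiponectin gene, had an intensity of 6164 in the DKO-labelled array, against 6714 in the ApoE-KO-labelled array. Differences are given throughout as log2 intensity of the DKO-labelled array minus that of the ApoE-KO-labelled array, so that a difference of 1 is 2-fold.

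Most genes of pyruvate oxidation and of the cycle had more signal in the DKO-labelled array. Of the 33 genes, 29 were higher there and 4 lower, where 46.4% of all named genes were higher. The median difference was 1.01, against -0.01 over all 19938 named genes. At least 2-fold higher signal was seen for 17 of the 33 members, where 1.51% of all named genes were that much higher. No member was at least 2-fold lower, where 0.527% of all named genes were. Members were read mostly by bright probe sets, so the same count was set against bright genes. Of the 24 members with a mean log2 intensity of at least 10, 15 were at least 2-fold higher in the DKO-labelled array and 0 were at least 2-fold lower, where the shares of all 1713 such genes were 6.25% and 0.175%. At 1.5-fold, 22 members were higher, beside 4.44% of all named genes, and at 3-fold 3 members were higher (Pdk4, Suclg1 and Sucla2), beside 0.291%. Pdha1, Ogdh and Mdh2 passed 2-fold by little and stood at 0.95, 0.99 and 0.99 under quantile normalization, which left 14 members past it. The differences were uneven within the list, with 17 genes between 1.01 and 2.07, 6 between 0.52 and 0.84, and 10 between -0.26 and 0.46.

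Markers of several cell types also differed between the arrays, some higher and some lower in the DKO-labelled array. Brown and beige adipocyte markers, Ucp1 included, were higher, 17 of 19 in direction and 16 at least 2-fold, with a summed intensity of 34598 in the DKO-labelled array, against 6651 in the ApoE-KO-labelled array. The markers short of 2-fold were Prdm16 (0.13), Ebf2 (-0.21) and Zic1 (-0.23). Skeletal muscle, which is itself rich in cycle enzymes, had all 22 of its markers lower and 20 of them at least 2-fold lower, with a summed intensity of 4347.5 in the DKO-labelled array, against 47977 in the ApoE-KO-labelled array. The calcium pump gene Atp2a1 had 156 in the DKO-labelled array, against 5899.5 in the ApoE-KO-labelled array. No muscle marker was at 0, but 16 of the 22 lay under 196.9, the median intensity of named probe sets, in the DKO-labelled array, against 1 in the ApoE-KO-labelled array, and such low values were not told apart from background. Of the 19 brown and beige markers, 1 lay under 196.9 in the DKO-labelled array, against 5 in the ApoE-KO-labelled array. B cell markers (9 of 9 lower, median -1.08), macrophage markers (10 of 10 lower, median -0.54), fibroblast and progenitor markers (10 of 10 lower, median -0.59) and T cell markers (7 of 7 lower, median -0.24) had less signal in the DKO-labelled array. Endothelial markers had a median difference of 0.13 over 8 genes. Of the 6 epithelial markers, 5 lay under 196.9 in both arrays and were not told apart from background. The part of these cell types in the differences of the cycle genes was not tested, and in pooled tissue RNA a changed number of cells of a type and a changed amount of RNA per cell cannot be told apart.

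**Figure D1:**
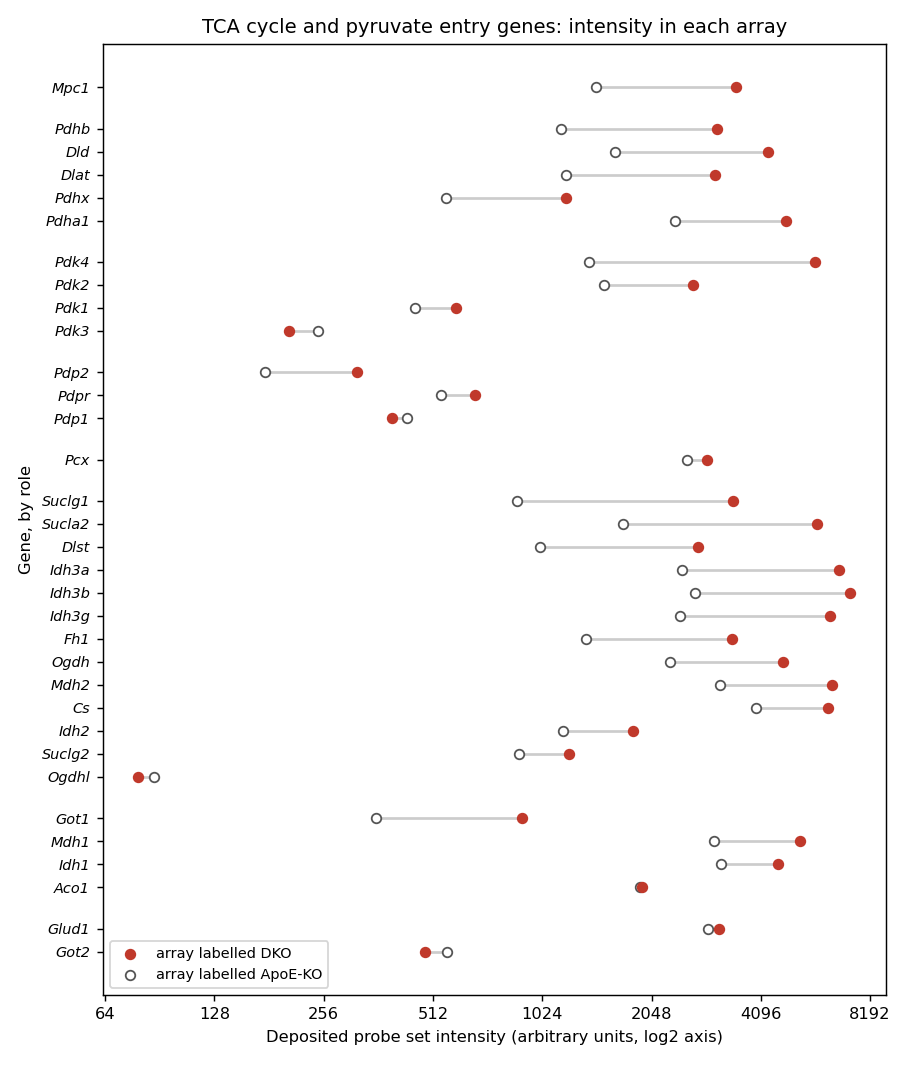
Deposited intensity of the 33 measured genes in the DKO-labelled array (filled) and the ApoE-KO-labelled array (open), on a log2 axis, grouped by role, with 1 array per group and no error bars. The filled point lies right of the open point in 29 genes and left of it in Pdk3, Pdp1, Ogdhl and Got2.

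The 1 measured gene of the pyruvate carrier and all 5 genes of the pyruvate dehydrogenase complex were higher in the DKO-labelled array. Mpc1, an obligate subunit of the pyruvate carrier, had an intensity of 3503 in the DKO-labelled array, against 1438 in the ApoE-KO-labelled array, a 2.44-fold difference (1.28). All 5 genes of the complex were at least 2-fold higher, between 1.01 and 1.42, with a median of 1.36. Pdhb, the beta subunit of the decarboxylating E1 enzyme, had 3097 in the DKO-labelled array, against 1153 in the ApoE-KO-labelled array (1.42). Its partner Pdha1, the alpha subunit that carries the phosphorylation sites, had 4810.4 in the DKO-labelled array, against 2382 in the ApoE-KO-labelled array (1.01). The alpha subunit gene is X-linked and sat just past 2-fold (0.95 under quantile normalization), the lowest of the complex. Dlat, the acetyltransferase E2, had 3068 in the DKO-labelled array, against 1193 in the ApoE-KO-labelled array (1.36). Dld, the dehydrogenase E3 that this complex shares with the oxoglutarate and branched-chain keto acid complexes, had 4273.5 in the DKO-labelled array, against 1624 in the ApoE-KO-labelled array (1.40). Pdhx, the protein that anchors E3 to the core, had 1188 in the DKO-labelled array, against 555 in the ApoE-KO-labelled array (1.10). The differences of the 5 subunits spanned 0.41 on the log2 scale.

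The kinases that restrain the complex differed widely among themselves. Pdk4, the isoform induced by fasting and by fatty acids, had an intensity of 5781 in the DKO-labelled array, against 1379 in the ApoE-KO-labelled array. This 4.19-fold difference (2.07) was the largest of the 33 members and the 21st largest upward of all named genes. Pdk2, the most widely expressed kinase, had 2664 in the DKO-labelled array, against 1515 in the ApoE-KO-labelled array (0.81), short of 2-fold. Pdk1, a target of the hypoxia factor HIF-1, had 591 in the DKO-labelled array, against 457 in the ApoE-KO-labelled array (0.37). Pdk3 went the other way, with 205 in the DKO-labelled array, against 247 in the ApoE-KO-labelled array (-0.26). That difference lay inside the central 90% of all named genes (-0.45 to 0.55), and the lower value was close to 196.9. The differences of the 4 kinases thus spanned 2.33, from the highest of all members to the lowest.

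The promoter of Pdk4 is shown because this gene stood apart from the other kinases. The 250 bases before its RefSeq start (chr6:5496279-5496528, minus strand, GRCm38.p6) are written 5′ to 3′ on the strand of the gene, and here and in the sequences below capitals mark matches on either strand to the CCAAT box, to the GC box spelled GGGCGG, to AAGGTCA, a core site of the kind bound by estrogen-related receptors, and to the TATA box spelled TATAAA.
Pdk4: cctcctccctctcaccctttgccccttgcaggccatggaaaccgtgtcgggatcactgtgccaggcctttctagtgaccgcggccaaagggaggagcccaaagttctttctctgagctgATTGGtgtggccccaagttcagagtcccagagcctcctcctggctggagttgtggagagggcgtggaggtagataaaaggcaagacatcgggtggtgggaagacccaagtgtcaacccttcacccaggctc
This window held 1 match, a CCAAT box on the opposite strand at position -131 from the start.

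The phosphatases that reactivate the complex differed less. Pdp2, the catalytic subunit regulated by insulin in fat, had an intensity of 316 in the DKO-labelled array, against 176 in the ApoE-KO-labelled array (0.84). The lower of these values lay under 196.9, and with that value in its place the difference was 0.68. Pdp1, the calcium-stimulated catalytic subunit, had 395 in the DKO-labelled array, against 434 in the ApoE-KO-labelled array (-0.14). Pdpr, the regulatory subunit, had 667 in the DKO-labelled array, against 539 in the ApoE-KO-labelled array (0.31). None of the 3 phosphatase genes reached 2-fold. Pcx, which carboxylates pyruvate to oxaloacetate and so refills the cycle, had 2905 in the DKO-labelled array, against 2569 in the ApoE-KO-labelled array. Its difference of 0.18 lay inside the central 90% of all named genes (-0.45 to 0.55), in contrast to 1.28 for the carrier gene Mpc1 and 1.01 to 1.42 for the dehydrogenase complex.

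**Figure D2:**
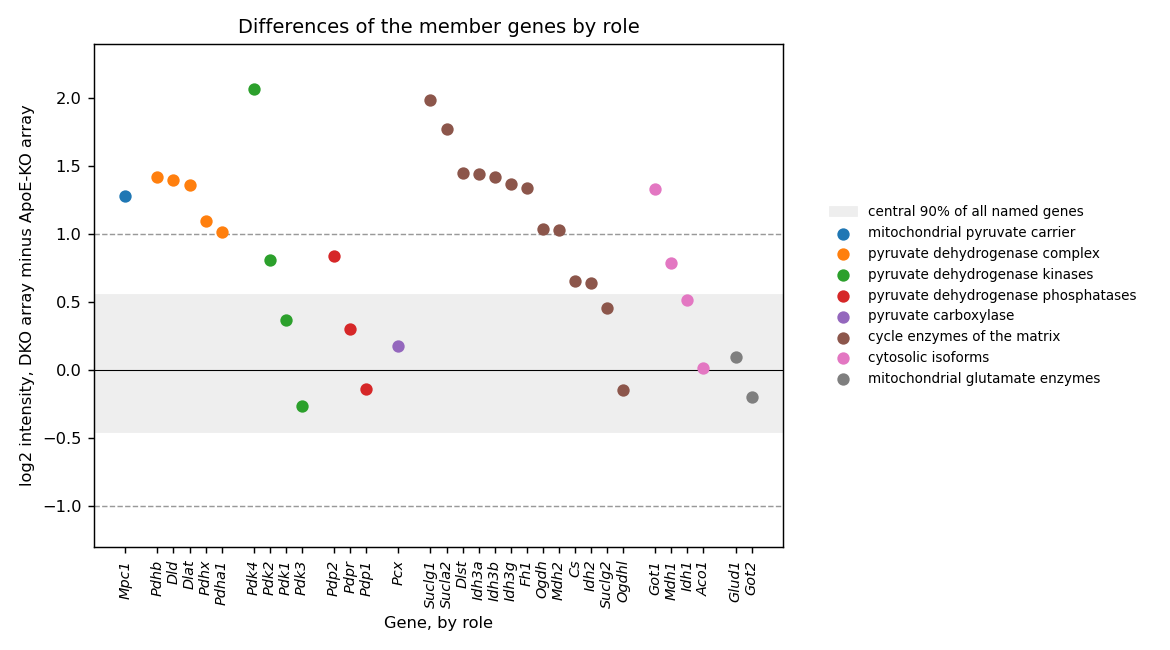
Difference in log2 intensity (DKO-labelled array minus ApoE-KO-labelled array) of each member, grouped by role, with dashed lines at 2-fold and the grey band covering the central 90% of all named genes (-0.45 to 0.55). All 5 genes of the pyruvate dehydrogenase complex and 9 of 13 cycle enzymes of the matrix lie above the upper line, while the kinases spread from -0.26 to 2.07.

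Within the matrix part of the cycle, 12 of 13 genes were higher in the DKO-labelled array and 9 were at least 2-fold higher, with a median of 1.34. The entry step was among the smaller differences. Cs, citrate synthase, which joins acetyl-CoA to oxaloacetate, had an intensity of 6281 in the DKO-labelled array, against 3977 in the ApoE-KO-labelled array, a 1.58-fold difference (0.66). The 3 subunits of the NAD-dependent isocitrate dehydrogenase, the regulated oxidative step, moved almost alike, with differences that spanned 0.07. Idh3a, its catalytic subunit, had 6744 in the DKO-labelled array, against 2481 in the ApoE-KO-labelled array (1.44). Idh3b had 7211 in the DKO-labelled array, against 2698 in the ApoE-KO-labelled array (1.42). Idh3g, on the X chromosome, had 6333 in the DKO-labelled array, against 2450.2 in the ApoE-KO-labelled array (1.37). Idh2, the NADP-dependent enzyme of the same compartment, which supplies reducing power to antioxidant systems, stood lower than all 3, with 1816.5 in the DKO-labelled array, against 1164 in the ApoE-KO-labelled array (0.64).

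The oxoglutarate dehydrogenase complex, which is built like the pyruvate complex and shares Dld with it, was at least 2-fold higher in each of its 3 subunit genes. Ogdh, its E1 enzyme, had an intensity of 4713 in the DKO-labelled array, against 2297 in the ApoE-KO-labelled array (1.04, or 0.99 under quantile normalization). Dlst, its E2 enzyme, had 2758 in the DKO-labelled array, against 1009 in the ApoE-KO-labelled array (1.45). In both complexes an E1 gene was the smallest difference of the subunits, Pdha1 in one and Ogdh in the other. The other E1 gene of the pyruvate complex, Pdhb, had the largest difference of that complex (1.42). Ogdhl, an Ogdh-like gene known mainly from brain, had 79.1 in the DKO-labelled array, against 87.5 in the ApoE-KO-labelled array (-0.15). It was the only member whose mean lay below 196.9, so its values were not told apart from background.

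Succinyl-CoA ligase, the step that makes a nucleoside triphosphate directly, showed the widest gap between partner subunits of the complexes examined here. The enzyme pairs an alpha subunit, SUCLG1, with one of the beta subunits, SUCLA2 for the ATP-making form and SUCLG2 for the GTP-making form. Suclg1 had an intensity of 3443 in the DKO-labelled array, against 869.7 in the ApoE-KO-labelled array, a 3.96-fold difference (1.99). Sucla2 had 5844 in the DKO-labelled array, against 1706 in the ApoE-KO-labelled array, a 3.43-fold difference (1.78). Both stood among the 50 largest upward differences of all named genes, at ranks 27 and 46. Suclg2 had 1213 in the DKO-labelled array, against 881 in the ApoE-KO-labelled array, a 1.38-fold difference (0.46). The difference of Sucla2 exceeded that of Suclg2 by 1.32 on the log2 scale. A second Suclg2 probe set, annotated with the same transcripts, gave 1162 in the DKO-labelled array, against 847 in the ApoE-KO-labelled array, and the same difference (0.46). Probe positions were not given in the sources used here, so it is not known whether either probe set reads a related copy of Suclg2, and the gap of 1.32 is uncertain to that extent.

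The promoters of the 3 ligase genes are shown to set the pair with the larger differences beside the partner with the smaller one. They are the 250 bases before each RefSeq start in GRCm38.p6, 5′ to 3′ on the strand of the gene, at chr6:73248255-73248504, plus strand for Suclg1, at chr14:73552536-73552785, plus strand for Sucla2 and at chr6:95718847-95719096, minus strand for Suclg2.
Suclg1: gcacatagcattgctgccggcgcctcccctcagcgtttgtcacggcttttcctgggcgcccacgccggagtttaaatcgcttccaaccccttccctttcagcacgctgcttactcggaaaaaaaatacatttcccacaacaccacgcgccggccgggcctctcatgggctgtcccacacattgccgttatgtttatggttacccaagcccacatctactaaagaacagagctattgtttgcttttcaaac
Sucla2: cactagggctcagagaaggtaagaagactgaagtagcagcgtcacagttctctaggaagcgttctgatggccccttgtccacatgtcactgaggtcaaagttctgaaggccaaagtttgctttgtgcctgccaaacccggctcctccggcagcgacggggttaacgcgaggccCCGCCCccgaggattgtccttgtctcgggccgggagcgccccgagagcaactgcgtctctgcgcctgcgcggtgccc
Suclg2: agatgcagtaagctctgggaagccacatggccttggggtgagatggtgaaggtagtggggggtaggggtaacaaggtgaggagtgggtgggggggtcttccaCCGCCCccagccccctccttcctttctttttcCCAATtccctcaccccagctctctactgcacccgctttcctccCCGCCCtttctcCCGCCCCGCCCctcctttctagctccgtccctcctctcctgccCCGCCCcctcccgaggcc
The Suclg1 window held no match to the 4 marked motifs. The Sucla2 window held 1 GC box, and the Suclg2 window held 5 GC boxes, 2 of which overlap by 1 base, and 1 CCAAT box. These are matches of letters and not measured binding.

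The last steps of the cycle were also higher. Fh1, fumarase, whose transcripts serve both the matrix and the cytosol, had an intensity of 3416 in the DKO-labelled array, against 1349 in the ApoE-KO-labelled array (1.34). Mdh2, the malate dehydrogenase of the matrix, had 6451 in the DKO-labelled array, against 3156 in the ApoE-KO-labelled array (1.03, or 0.99 under quantile normalization). Succinate dehydrogenase, which is both a cycle enzyme and complex II of the respiratory chain, was kept in a separate list of pathway genes. Its subunits had differences of 1.09 (Sdha), 1.62 (Sdhb), 0.97 (Sdhc) and 1.28 (Sdhd).

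Mitochondrial and cytosolic isoforms of the same reaction were compared by their differences, since levels of different probe sets are not comparable. The 4 cytosolic genes had differences of 0.02 to 1.33 with a median of 0.66, and 1 of the 4 was at least 2-fold higher. Aco1 (0.02) and Idh1 (0.52) lay inside the central 90% of all named genes (-0.45 to 0.55), while Mdh1 (0.79) and Got1 (1.33) lay above it. For the NADP-dependent isocitrate dehydrogenases, Idh2 of the matrix (0.64) and Idh1 of the cytosol (0.52) were close, a gap of 0.12. Idh1 had an intensity of 4559 in the DKO-labelled array, against 3180.5 in the ApoE-KO-labelled array. For the malate dehydrogenases, Mdh2 of the matrix (1.03) exceeded Mdh1 of the cytosol (0.79) by 0.24. Mdh1 had 5251 in the DKO-labelled array, against 3036 in the ApoE-KO-labelled array. Aco1, the cytosolic aconitase, which turns into an iron regulatory protein when it loses its iron-sulphur cluster, had 1929.6 in the DKO-labelled array, against 1906 in the ApoE-KO-labelled array. Its difference of 0.02 was the smallest in size of all members and turned to -0.05 under quantile normalization.

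The aspartate aminotransferases ran opposite to the other pairs. Got1, the cytosolic enzyme of the malate-aspartate shuttle, had an intensity of 898 in the DKO-labelled array, against 357 in the ApoE-KO-labelled array, a 2.52-fold difference (1.33). Got2, its mitochondrial partner, had 487 in the DKO-labelled array, against 558 in the ApoE-KO-labelled array (-0.20). The mitochondrial minus the cytosolic difference was thus -1.53, and Got1 alone among the cytosolic genes passed 2-fold. The second Got2 probe set, which the annotation ties to the same transcripts, gave 469.8 in the DKO-labelled array, against 545 in the ApoE-KO-labelled array (-0.21). RefSeq lists pseudogenes of Got2, among them Got2-ps1, and of Mpc1, and the sources used here do not say which copy each probe set reads, so the Got2 and Mpc1 values are uncertain to that extent. Glud1, glutamate dehydrogenase, which feeds 2-oxoglutarate into the cycle from glutamate, had 3132 in the DKO-labelled array, against 2929 in the ApoE-KO-labelled array (0.10). Both glutamate enzymes of the matrix therefore lay inside the central 90% of all named genes.

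**Figure D3:**
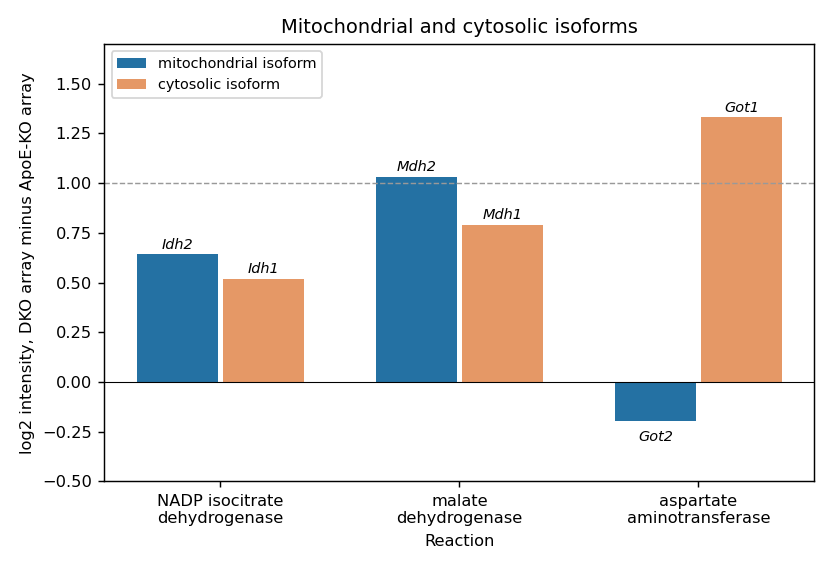
Difference in log2 intensity (DKO-labelled array minus ApoE-KO-labelled array) of the mitochondrial (left bar) and cytosolic (right bar) isoform of 3 reactions, with a dashed line at 2-fold and no error bars, since there was 1 array per group. The isocitrate and malate dehydrogenase pairs differ by 0.12 and 0.24, while Got1 stands at 1.33 and Got2 at -0.20.

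The promoters of the aminotransferase pair are shown because Got1 passed 2-fold while Got2 stayed inside the central 90% of all named genes. They are the 250 bases before the RefSeq starts in GRCm38.p6, 5′ to 3′ on the strand of the gene, at chr19:43524606-43524855, minus strand for Got1 and at chr8:95888402-95888651, minus strand for Got2.
Got1: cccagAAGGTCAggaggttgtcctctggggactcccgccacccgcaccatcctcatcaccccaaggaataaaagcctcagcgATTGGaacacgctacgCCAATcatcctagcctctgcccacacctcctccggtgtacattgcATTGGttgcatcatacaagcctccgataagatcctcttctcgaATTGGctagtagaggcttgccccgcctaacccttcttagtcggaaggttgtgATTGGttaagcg
Got2: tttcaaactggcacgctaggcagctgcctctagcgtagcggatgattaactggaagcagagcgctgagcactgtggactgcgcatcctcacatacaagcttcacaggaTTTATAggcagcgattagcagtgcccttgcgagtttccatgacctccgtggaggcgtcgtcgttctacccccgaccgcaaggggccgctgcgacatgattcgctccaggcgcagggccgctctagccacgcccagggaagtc
The Got1 window held 5 CCAAT boxes and 1 AAGGTCA site, and the Got2 window held 1 TATAAA on the opposite strand, at position -142 from the start.

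Across the list, RefSeq gave 42 promoters for 32 of the 34 genes, of which Ogdh had 6. Within 250 bases before the start, on either strand, CCAAT was found in 21 of the 42 and in 33.9% of all 32851 mouse promoters of the same length. The GC box GGGCGG was found in 26 of the 42 and in 32.7% of all promoters, or 45.5% of promoters of the genes named on the array. The core of the cAMP response element, TGACGTC, was found in 7 of the 42 and in 2.78% of all promoters, and leaving out the 6 of Ogdh it was found in 4 of 36. The E box CACGTG was found in 7 of the 42 (4 of 36 without Ogdh) and in 6.02% of all promoters. The ETS site CCGGAAG was found in 3 of the 42 and in 6.91% of all promoters, the receptor site AAGGTCA in 1 (Got1) and in 4.08%, and TATAAA in 1 (Got2) and in 12.4%. Among promoters of the genes named on the array, the shares were 34.5% (CCAAT), 3.58% (TGACGTC) and 6.99% (CACGTG). For the remaining motifs they were 9.41% (CCGGAAG), 3.39% (AAGGTCA) and 10.5% (TATAAA). These motifs were chosen with the differences known, and a match describes the sequence only.

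Genes that work around the cycle were read from 2 lists. Of 21 measured enzymes of the cycle and of pyruvate use that are not members, 17 were higher in the DKO-labelled array (median 0.70), 7 of them 2-fold or more, and 0 were 2-fold lower. The largest were Ldhb (1.65), the lactate dehydrogenase subunit that favours pyruvate formation, Sdhb (1.62), Acss1 (1.32), which makes acetyl-CoA from acetate in the matrix, and Sdhd (1.28). Ldhb had an intensity of 907 in the DKO-labelled array, against 289 in the ApoE-KO-labelled array. Of 11 respiratory chain and ATP synthase genes, taken as examples of the machinery that the cycle feeds, 11 were higher, 8 of them 2-fold or more. Their median of 1.15 stands beside 1.01 for the 33 members, and their largest differences were those of cytochrome c (Cycs, 1.72), Uqcrfs1 (1.59), Ndufv1 (1.58) and Cox5a (1.34). The 11 were picked examples and do not stand for the whole chain. Among ATP synthase genes outside them, Atp5g1 alone was lower (-0.50). The other genes with names starting in Atp5 were higher, from 0.28 (Atp5c1) to 1.14 (Atp5md).

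**Figure D4:**
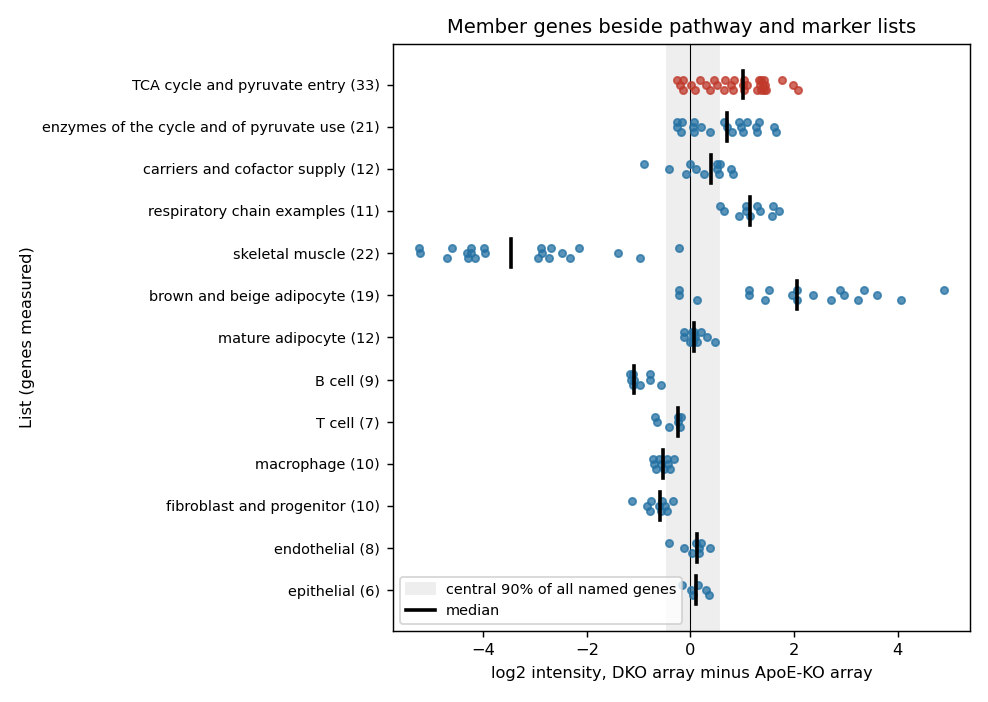
Difference in log2 intensity (DKO-labelled array minus ApoE-KO-labelled array) of the 33 member genes (red) and of the genes of each pathway and cell marker list (blue), with medians as black bars and the grey band covering the central 90% of all named genes. The members have a median of 1.01, between the mature adipocyte markers (0.06) and the brown and beige markers (2.06), and the skeletal muscle markers lie furthest left (median -3.46).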

How the data were processed

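Expression was measured in pooled inguinal fat RNA on 2 arrays, 1 labelled DKO and 1 labelled ApoE-KO, and arrays were grouped by their genotype labels. Per the labels' protocols, total RNA came from a Trizol extraction and carried a biotin label. The authors deposited 1 linear intensity per probe set and array, from 3.55 to 23636, with medians of 152.1 (DKO) and 157.65 (ApoE-KO). Background correction, summarisation, scaling and detection calls were not described (not given in the sources used here), so a low value was not told apart from background. Log2 was taken with no offset and no filter. Names came from the platform's annotation: 21789 had 1 symbol, 1621 had several and were not used, and 12147 were unnamed here. Of several probe sets of a gene, the one with the highest mean was used. A single array per genotype allows no test, so genes were counted by size (at least 2-fold). All 34 members were to be named, and of other genes the 4 with the largest differences per pathway list, the other succinate dehydrogenase subunits being named after their values were seen. Also named beyond that plan were Slc25a13, Adipoq, the brown and beige markers short of 2-fold and the ATP synthase genes outside the examples. The members and lists were chosen with earlier results of these data known. The steps were checked on simulated data with planted differences well past 2-fold and little noise, which checks the computation and not the 2-fold counts. Promoters came from RefSeq (GRCm38.p6). Python 3.11.15, pandas 2.3.3 and statsmodels 0.14.6 were used. Alternatives were other scalings, an offset of 50, the mean of probe sets, a floor at 196.9 and other thresholds.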

Additional observations from a re-analysis of the deposited data

How the results depend on the processing

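The count of 17 members at least 2-fold higher became 14 under quantile normalization, 16 with an offset of 50, 22 at 1.5-fold and 3 at 3-fold, and stayed at 17 under median centring, loess with a span of 0.4, the mean of probe sets and both floor settings. Among the members only Got2 and Suclg2 had several probe sets, and only Pdp2 and Ogdhl had a value under 196.9. None of these genes was among the 17, so the mean of probe sets and the floor could not change that count. Pdha1, Ogdh and Mdh2 dropped below 2-fold under quantile normalization (0.95, 0.99 and 0.99) and Pdha1 with the offset (0.999). The median of members lay between 0.95 and 1.07 and no member was at least 2-fold lower, in all 7 settings of scale, offset, probe sets and floor. The median gap of the isoform pairs lay between 0.11 and 0.12 and the median of the pathway genes outside the list between 0.61 and 0.75. Of 198 recomputed member differences, 194 moved by 0.1 or less, and 1 changed sign (Aco1, -0.05 under quantile normalization). Many of the 198 could not move, since the mean of probe sets and the floor left most members untouched. Median centring shifted every gene by the same amount. Pdp2 became 0.70 with the offset and 0.68 with the floor, Got1 became 1.22 with the offset, and Ogdhl became 0 with the floor. No paired analysis was possible because the labels give 1 array per genotype. Leaving out a replicate was not possible for the same reason. The differences carry no error.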

Other observations

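Carriers and cofactor supply of the cycle were read from a list of 12 measured genes. Of these, 8 were higher in the DKO-labelled array and 3 lower, with a median of 0.40, and 0 reached 2-fold either way. The largest difference was that of Slc25a12, an aspartate-glutamate carrier of the malate-aspartate shuttle that is abundant in muscle, with an intensity of 243 in the DKO-labelled array, against 454 in the ApoE-KO-labelled array (-0.91). Slc25a11, the oxoglutarate-malate carrier of the same shuttle, had 1424 in the DKO-labelled array, against 809.6 in the ApoE-KO-labelled array (0.81). Lias, which makes the lipoyl group of Dlat and Dlst, was higher in the DKO-labelled array (0.57). Lipt1, a lipoyl transferase, had 227 in the DKO-labelled array, against 133 in the ApoE-KO-labelled array, and its difference of 0.78 became 0.21 with values under 196.9 set to 196.9. Slc25a13, the other aspartate-glutamate carrier, had 98.1 in both arrays, under 196.9, so its values were not told apart from background. The other genes of the malate-aspartate shuttle named here held differences of 1.33 (Got1), 0.79 (Mdh1), 1.03 (Mdh2), 0.81 (Slc25a11), -0.20 (Got2) and -0.91 (Slc25a12). The skeletal muscle markers, lower in the DKO-labelled array with a median of -3.46, moved in the direction of Slc25a12, and their part in it was not tested.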
